A study of Mus musculus with 7 samples.

Results

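The 7 cyclin-dependent kinase inhibitor genes of the mouse, Cdkn1a, Cdkn1b, Cdkn1c, Cdkn2a, Cdkn2b, Cdkn2c and Cdkn2d, were examined for trimethylation of histone H3 at lysine 27 (H3K27me3). They were taken by name from the 21631 protein-coding genes annotated on autosomes and X. Peaks were assigned to a gene when they overlapped its body extended by 10 kb on either side, at coordinates of mouse build mm10. The mark had been mapped by ChIP-seq (immunoprecipitation of crosslinked chromatin, then sequencing) in basal progenitors of the epidermis from back skin of mice at postnatal day 0, sorted as EpCAM-positive and Sca1-positive cells with high alpha6 integrin. The 2 groups used are control cells (genotype label Control) and cells lacking Ring1a and Ring1b (genotype label Ring1a/b 2KO, below 2KO). Each group had 2 labelled libraries and 1 deposited list of called peaks, with 3631 peaks in the control list and 2340 in the 2KO list. The labels used here name no allele, Cre driver or number of mice for either genotype. The titles of the 2KO libraries name H3K27me1, whereas their antibody label and the name of the list give H3K27me3, and the list was taken as H3K27me3. With 1 list per genotype there is no replicate error and no test between the genotypes. Depth is unknown, so a place without a peak is a place where none was called, not one shown to lack the mark.

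Inhibitors of cyclin-dependent kinases hold cells in the G1 phase of the cell cycle. The INK4 family (Cdkn2a to Cdkn2d) binds the kinases Cdk4 and Cdk6 and keeps them from D-type cyclins, and the CIP/KIP family (Cdkn1a to Cdkn1c) binds assembled cyclin and kinase complexes. Cdkn2a makes unrelated proteins from separate first exons: the downstream start gives p16Ink4a, a kinase inhibitor, and the upstream start gives p19Arf, which binds Mdm2 and so stabilises p53. Polycomb repressive complex 2 places H3K27me3, and Ring1a and Ring1b (genes Ring1 and Rnf2) are the ubiquitin ligases of Polycomb repressive complex 1. Cdkn2a and Cdkn2b are long-known Polycomb targets, and their repression is part of how Polycomb proteins allow progenitor cells, those of the epidermis included, to keep dividing.

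The sequences before the start sites of the inhibitors are shown because the control domain covered some of these starts and not others. Each line holds the 250 bases before a start, 5′ to 3′ on the strand of the gene, from the RefSeq promoter table (GRCm38.p6, the same build as mm10). Capitals mark CpG dinucleotides. Under the control peak lay the starts of Cdkn2a and Cdkn2b, and outside any peak lay those of Cdkn2c, Cdkn1b and Cdkn1a.
Cdkn2a, upstream start (p19Arf), chr4:89294620-89294869, minus strand: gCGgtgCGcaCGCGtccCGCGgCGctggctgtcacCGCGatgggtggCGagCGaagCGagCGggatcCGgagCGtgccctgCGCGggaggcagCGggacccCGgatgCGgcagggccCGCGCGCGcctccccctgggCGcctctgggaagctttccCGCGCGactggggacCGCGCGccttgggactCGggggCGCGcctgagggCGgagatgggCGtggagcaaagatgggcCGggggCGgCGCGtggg
Cdkn2a, downstream start (p16Ink4a), chr4:89282193-89282442, minus strand: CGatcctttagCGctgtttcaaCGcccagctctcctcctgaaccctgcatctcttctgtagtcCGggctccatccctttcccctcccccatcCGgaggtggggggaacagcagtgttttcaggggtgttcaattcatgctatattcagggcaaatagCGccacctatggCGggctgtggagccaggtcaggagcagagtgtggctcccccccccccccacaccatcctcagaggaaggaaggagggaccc
Cdkn2b, chr4:89311033-89311282, minus strand: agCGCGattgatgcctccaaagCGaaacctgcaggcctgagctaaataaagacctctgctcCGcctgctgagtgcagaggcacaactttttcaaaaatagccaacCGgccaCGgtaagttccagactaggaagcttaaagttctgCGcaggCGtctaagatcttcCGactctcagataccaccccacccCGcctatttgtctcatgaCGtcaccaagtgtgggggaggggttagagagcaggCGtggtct
Cdkn2c, upstream start, chr4:109666757-109667006, minus strand: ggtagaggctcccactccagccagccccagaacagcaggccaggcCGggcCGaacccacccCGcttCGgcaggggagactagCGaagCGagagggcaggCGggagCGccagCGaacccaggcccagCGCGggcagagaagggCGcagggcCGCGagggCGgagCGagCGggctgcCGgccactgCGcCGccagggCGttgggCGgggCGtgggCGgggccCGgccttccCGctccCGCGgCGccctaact
Cdkn1b, chr6:134920151-134920400, plus strand: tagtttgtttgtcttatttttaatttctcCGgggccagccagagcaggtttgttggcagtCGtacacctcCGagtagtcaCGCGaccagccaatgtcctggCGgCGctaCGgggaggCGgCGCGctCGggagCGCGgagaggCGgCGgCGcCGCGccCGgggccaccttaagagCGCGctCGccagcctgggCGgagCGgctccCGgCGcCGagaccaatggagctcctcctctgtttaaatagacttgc
Cdkn1a, downstream start, chr17:29093519-29093768, plus strand: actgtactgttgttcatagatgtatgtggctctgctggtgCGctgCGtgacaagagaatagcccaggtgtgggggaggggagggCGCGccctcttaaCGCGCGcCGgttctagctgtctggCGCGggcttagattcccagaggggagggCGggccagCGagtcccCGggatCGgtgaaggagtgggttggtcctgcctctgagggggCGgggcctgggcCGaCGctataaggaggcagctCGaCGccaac

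The upstream Cdkn2a start was the most CpG-rich, with 40 CpG in its printed bases, against 7 before the downstream start of the same gene. Cdkn2b had 12. Cdkn2c (29) and Cdkn1b (28), neither of which lay under a peak, had more than either Cdkn2b or the downstream Cdkn2a start, and Cdkn1a had 19. Of the starts not printed, which were outside any peak, the upstream one of Cdkn1a had 2, the downstream one of Cdkn2c 6 and that of Cdkn2d 16.

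Over the inhibitor genes, most of the length called for H3K27me3 in the control list was at Cdkn2a and Cdkn2b, and no 2KO peak was called in this domain. Cdkn2c had a peak of both lists beside the gene, and the other inhibitors had none. In all, 3 of 7 inhibitor genes had a control peak in the window, on 2 peaks, where 14.9% of all protein-coding genes had one. A 2KO peak was listed at 1 of 7, where the share of all genes was 11.2%. Of the 7, Cdkn2a and Cdkn2b had a control peak and no 2KO peak (5.98% of all genes), Cdkn2c had peaks of both lists (8.9% of all genes), and 4 had neither. Since Cdkn2a and Cdkn2b share 1 peak, these counts are few and not independent. The called length over the merged windows of the 7 genes was 53.2 kb of 183.0 kb in the control list and 5.75 kb in the 2KO list. The whole lists covered 24.8 Mb (control) and 16.4 Mb (2KO). Of the 53.2 kb, 46.6 kb was the Cdkn2a and Cdkn2b domain.

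**Figure D1:**
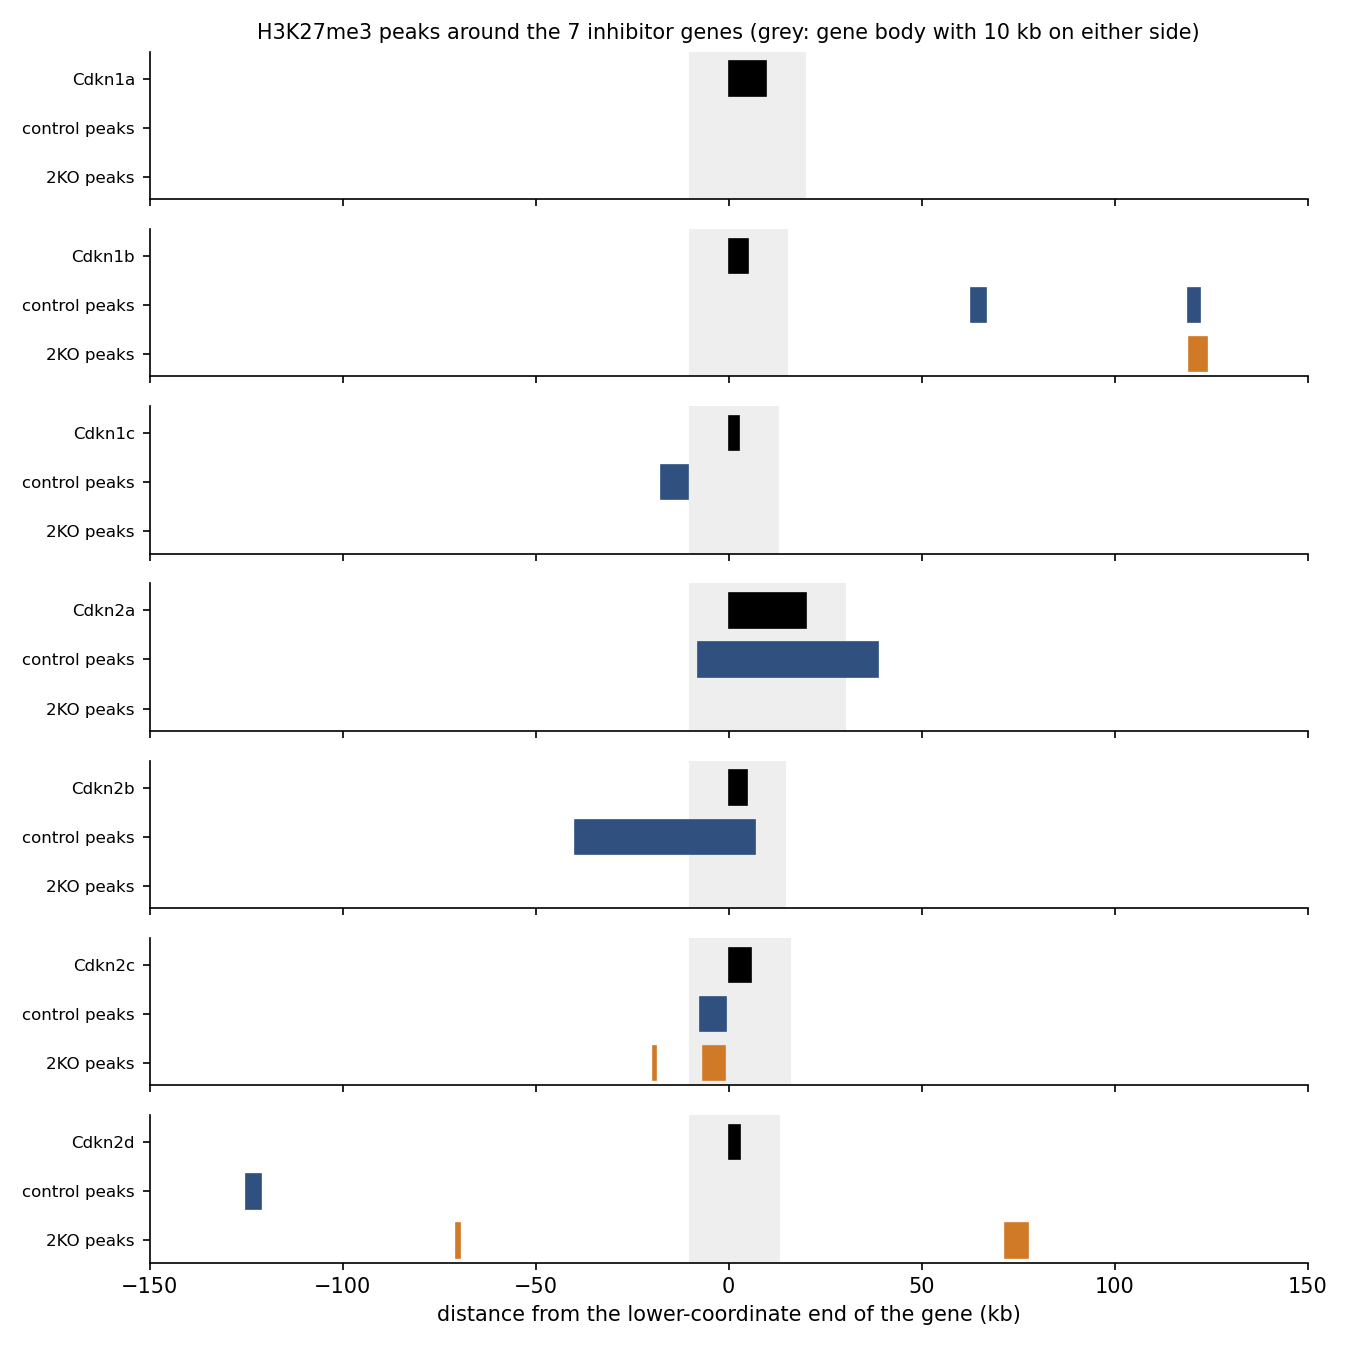
Called H3K27me3 peaks around each inhibitor gene, with the distance from the lower-coordinate end of the gene in kb on the horizontal axis; black bars are gene bodies, blue bars control peaks, orange bars 2KO peaks, and grey marks the gene body with 10 kb on either side. Control peaks cross the grey area at Cdkn2a, Cdkn2b and Cdkn2c, a 2KO peak crosses it at Cdkn2c, and the control peak beside Cdkn1c ends 10.4 kb from the gene. The same control peak is drawn for Cdkn2a and for Cdkn2b.

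The INK4 genes Cdkn2a and Cdkn2b lay wholly inside 1 control peak on chromosome 4, from 89266471 to 89313116 (46.6 kb). Cdkn2a (89274473 to 89294619, 20.1 kb, minus strand) and Cdkn2b (89306289 to 89311032, 4.74 kb, minus strand) were covered over 100% of their bodies, and 1.4% of all protein-coding genes lay wholly inside a control peak. In the 2KO list 0 kb of the domain was called. Of all 3631 control peaks, 1910 (52.6%) had no 2KO peak, and by width this domain (46.646 kb) ranked 2nd among these 1910. The only wider one was a 49.1 kb peak at Zfhx3, which encodes a zinc finger homeodomain factor, and one of 46.594 kb over Acot genes followed closely. The domain ranked 16th by width in the control list, and 14 of these 16 widest peaks met a 2KO peak.

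Both edges of the domain lay outside the genes. The lower edge was 8.00 kb beyond the 3′ end of Cdkn2a, and the higher edge was 2.08 kb upstream of the Cdkn2b start. Between the edges, 53.4% of the domain was inside the 2 genes and 11.7 kb was the interval between them. The upstream Cdkn2a start was 18.5 kb from the nearer edge, the downstream start 15.7 kb and the Cdkn2b start 2.08 kb, so that Cdkn2b sat at the margin and both Cdkn2a starts near the middle. Of 106 control peaks of 20 kb or more that held at least 1 whole protein-coding gene, the median distance from edge to outermost gene was 6.96 kb on the shorter side and 13.9 kb on the longer side. In 14 of the 106 the shorter side measured less than the 2.08 kb at Cdkn2b, and in 14 the longer side measured less than the 8.00 kb at Cdkn2a. Over all 268 control peaks that held a whole gene, whatever their width, the medians were 2.59 and 6.56 kb, with 113 below the shorter and 158 below the longer distance of this domain. The domain thus kept closer to its genes than most wide peaks did, but not closer than most peaks of any width on the longer side.

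A long noncoding RNA gene, Gm12610 (89295180 to 89518621, 223.4 kb, plus strand), starts 561 bp from the upstream Cdkn2a start, points away from it and runs across Cdkn2b on the opposite strand. Its start, with 37 CpG in its promoter window of 300 bases, lay under the control peak. The first 17.9 kb of the gene were inside the domain and its remaining length was not. The next control peak on that side (89521183 to 89528661, 7.48 kb) began 2.56 kb after the end of Gm12610 and had no 2KO peak. No base of Gm12610 was under a 2KO peak.

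**Figure D2:**
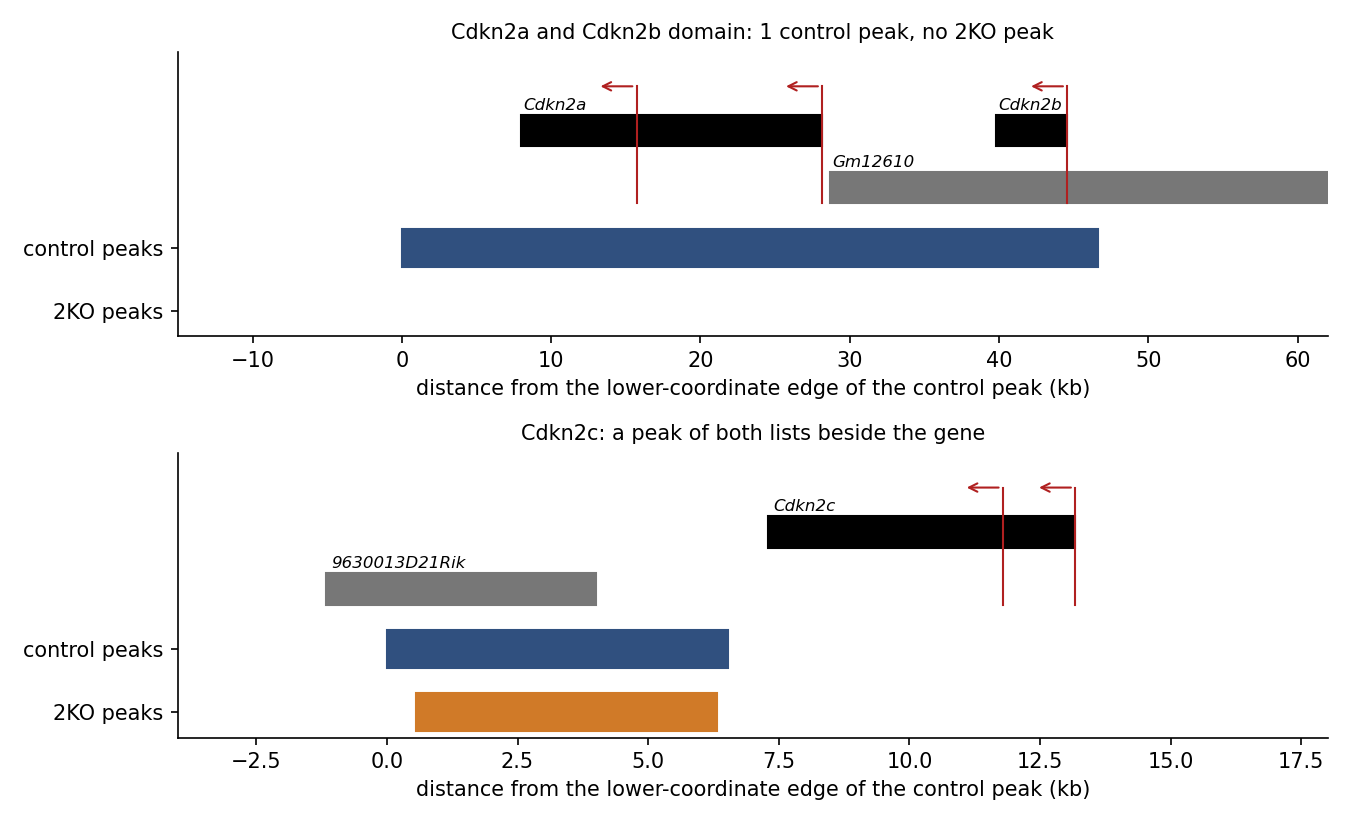
The Cdkn2a and Cdkn2b domain (above) and the peaks at Cdkn2c (below), with the distance from the lower-coordinate edge of the control peak in kb; black bars are inhibitor genes, grey bars long noncoding RNA genes, red arrows RefSeq start sites with their direction, blue bars control peaks and orange bars 2KO peaks. The 46.6 kb control peak covers both genes and their 3 starts with no 2KO peak, whereas at Cdkn2c the 6.53 kb control and 5.75 kb 2KO peaks lie beside the gene and away from its starts.

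The nearest 2KO peaks lay far from the domain on either side. On the lower side the distance was 447.3 kb, to a 4.25 kb peak at the interferon gene Ifna7 (88814948 to 88819200), which overlapped no control peak. On the higher side it was 371.7 kb, to an 8.38 kb peak over Dmrta1 (89684774 to 89693153), which encodes a DM-domain transcription factor. Dmrta1 is the next protein-coding gene on this side, and its 5.83 kb control peak (89686237 to 89692065) was covered to 100% by the 2KO peak. Mtap, a methionine salvage enzyme gene and the next on the other side (85.4 kb away), had no peak of either list within 10 kb. The nearest 2KO peak of the 1910 control peaks without a counterpart was at a median of 313.4 kb, and 55.0% of them were nearer to one than this domain was. The distance at Cdkn2a and Cdkn2b was therefore ordinary for such peaks.

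Along chromosome 4 the domain belonged to a run of 12 consecutive control peaks that met no 2KO peak, from 65122841 to 89528661 (24.4 Mb), which was looked at after the data were seen. The stretch was not free of 2KO peaks, since the one at Ifna7 lay between control peaks of the run. The other 11 peaks of the run covered 63.0 kb together, compared with 46.6 kb for the domain alone. Over the genome there were 730 such runs with a median of 2 peaks, and 12 of them had as many peaks as this one or more. The stretch between 2KO peaks just below the Ifna7 peak, from 58208519 to 88814947, was the longest without a 2KO peak between 2 peaks of that list (30.6 Mb) and held 9 control peaks. Over the whole of chromosome 4, 102 of 217 control peaks (47.0%) had no 2KO peak. With 1 domain, a feature of the region and a feature of these genes cannot be told apart.

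Peaks of like width were set beside the domain. Among the 20 control peaks nearest to it in width (40.25 to 54.0 kb), 15 met a 2KO peak and 5 did not, with a median of 53.4% of bases covered and a range from 0 to 92.1%. By the log2 ratio of widths, the 5 nearest peaks over protein-coding genes differed from the domain by -0.05 to 0.07. They were the 46.6 kb peak over the acyl-CoA thioesterase genes Acot4, Acot3 and Acot5 (0% covered), the 46.0 kb peak at the eye and brain factor gene Pax6 (52.3%), the 45.1 kb peak at the neural POU factor gene Pou3f3 (80.1%), the 48.7 kb peak at Ttll6 and Hoxb13 (63.9%) and the 49.1 kb peak at Zfhx3 (0%). Among peaks that overlapped a protein-coding gene and met no 2KO peak, the next in width were those at Lhx2 (43.9 kb), Xkr9 (37.8 kb) and Tsc22d3 (37.0 kb). Of all 190 control peaks of 20 kb or more, 34 had no 2KO peak (17.9%, 95% Wilson interval 13.1 to 24.0, counting error only). Of the 106 of this width that held a whole protein-coding gene, as the domain does, 9 had none (8.49%). Control peaks that held 2 or more whole protein-coding genes numbered 20, and the 2 of them without a 2KO peak were those of Cdkn2a with Cdkn2b and of the Acot genes.

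**Figure D3:**
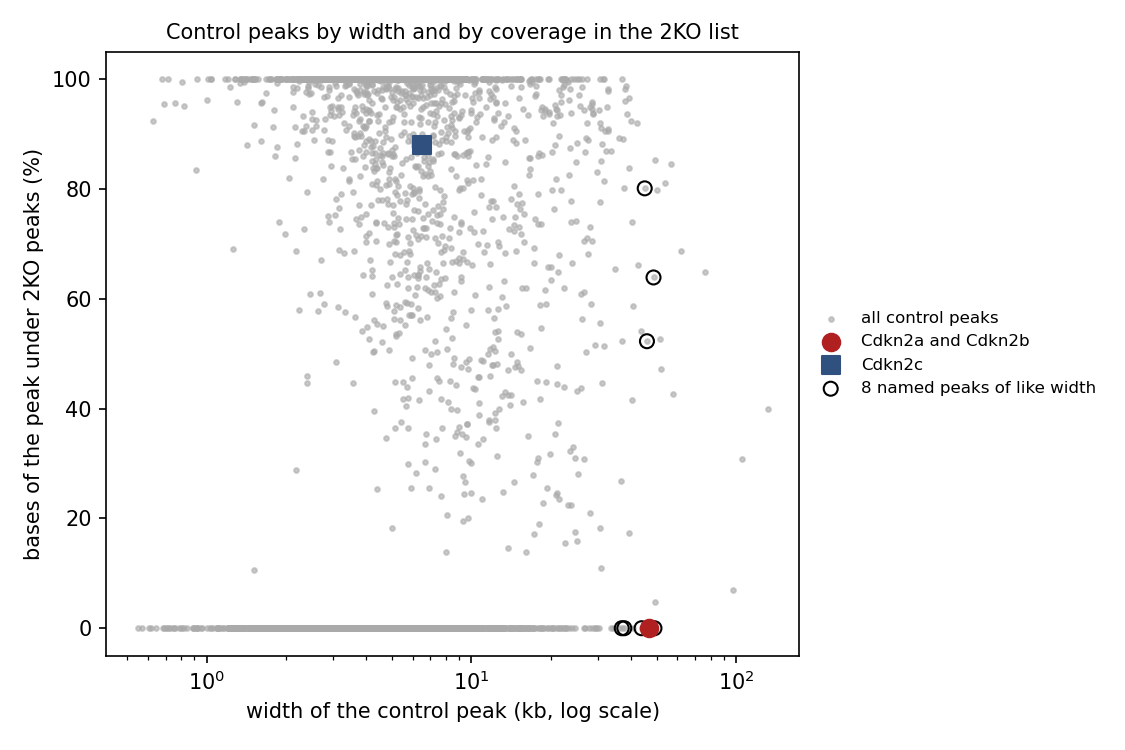
Each grey point is 1 control peak, with its width in kb on a log axis and the percentage of its bases under 2KO peaks; the red point is the Cdkn2a and Cdkn2b domain, the blue square the peak beside Cdkn2c, and open circles the 8 named peaks of like width, of which the one at the Acot genes lies behind the red point. The Cdkn2a and Cdkn2b domain is at 46.6 kb and 0%, and the Cdkn2c peak at 6.53 kb and 88.1%.

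Cdkn2c encodes p18Ink4c, an INK4 protein of the same kinases. On chromosome 4 (109660876 to 109666756, minus strand), its body held 0 kb of either list. The control peak (109653586 to 109660116, 6.53 kb) ended 0.759 kb beyond the 3′ end of the gene, and the 2KO peak (109654145 to 109659895, 5.75 kb) 0.98 kb beyond it. The 2KO peak lay wholly inside the control peak and covered 88.1% of it. The edges differed by 559 bp on the far side and by 221 bp on the side of the gene. Over 1550 pairs of 1 control and 1 2KO peak, the median absolute shift was 798.5 bp at the lower and 785.5 bp at the higher edge, so both edges at Cdkn2c moved less than the median. Of 828 control peaks of like width (80 to 125% of this one), 448 had a 2KO peak (54.1%, Wilson interval 50.7 to 57.5). In the 424 single pairs among them the median coverage was 97.0% (quartiles 75.8 and 100%), and the coverage at Cdkn2c lay between these quartiles. The log2 ratio of 2KO to control width was -0.18 at Cdkn2c, where the 2KO peak was the narrower, against a median of 0.09 in these pairs.

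The starts of Cdkn2c were 5.26 and 6.64 kb from the control peak and 5.48 and 6.86 kb from the 2KO peak. The peaks instead covered the start of a long noncoding RNA gene, 9630013D21Rik (109652427 to 109657588, minus strand), with 4.00 of its 5.16 kb under the control and 3.44 kb under the 2KO peak. The next gene on the other side, Faf1, is 9.87 kb from Cdkn2c and had no peak over its body, but 3.99 kb of control and 4.14 kb of 2KO peaks within 10 kb of it. The peaks in the Faf1 window lay past its far end, more than 250 kb from Cdkn2c. A 0.771 kb 2KO peak 18.7 kb from Cdkn2c overlapped no control peak. The marked place near Cdkn2c was thus beside the gene in both genotypes, unlike the domain that enclosed Cdkn2a and Cdkn2b.

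The last INK4 gene, Cdkn2d, which encodes p19Ink4d, had no peak in its window (chromosome 9, gene at 21288459 to 21291421). The nearest control peak was 121.2 kb away, at Pde4a, and the nearest 2KO peak 68.8 kb away, over the noncoding Gm36198 (5.89 kb), where no control peak was listed. Its neighbours Kri1 and Ap1m2, 0.489 and 3.19 kb away, had no peak within 10 kb. Cdkn2d was the only inhibitor gene whose nearest 2KO peak was closer than its nearest control peak.

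Among the CIP/KIP genes, Cdkn1c came closest to a peak. It encodes p57Kip2 and lies in an imprinted cluster (chromosome 7, 143458339 to 143461059). A control peak of 6.99 kb (143440930 to 143447914) ended 10.4 kb from the gene, just outside the window, and had no 2KO peak. By comparison, the Cdkn2c peak, the nearest to a gene body that it did not overlap, was 0.759 kb away, so no inhibitor gene had its nearest control peak between 0.759 and 10.4 kb. The peak beside Cdkn1c lay between genes, 13.9 kb past the end of Kcnq1. The nearest 2KO peak was 513.6 kb from Cdkn1c, and 62.9% of protein-coding genes were as near or nearer to one.

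Cdkn1b, which encodes p27Kip1 (chromosome 6, 134920401 to 134925525), was 57.7 kb from the nearest control peak, a 3.75 kb peak at Apold1 with no 2KO peak. Its nearest 2KO peak was 114.1 kb away (4.72 kb) and overlapped a control peak of 2.97 kb. Cdkn1a encodes p21Cip1, a main target of p53 (chromosome 17, 29090979 to 29100722). Its nearest control peak was 219.8 kb away, at Pi16, and its nearest 2KO peak 1432 kb away. With 500 kb on either side, 3 control peaks (6.52 kb) and no 2KO peak were listed around Cdkn1a, and 2 control peaks (6.73 kb) and 1 2KO peak around Cdkn1b. For comparison, the median protein-coding gene was 192.2 kb from a control and 285.2 kb from a 2KO peak. Cdkn1a was farther than the median from both lists and Cdkn1b nearer to both.

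Start sites were compared next, since the promoter table gives strands and alternative starts. It held 9 starts for 6 of the 7 inhibitor genes and none for Cdkn1c. The 2 starts of Cdkn2a and the 1 start of Cdkn2b lay under the control domain, and no inhibitor start lay under a 2KO peak. Over all 32619 starts, 6.75% lay under a control and 3.88% under a 2KO peak. In the window of 300 bases (250 before to 50 after the start), the inhibitor starts had a median of 22 CpG, from 2 at the upstream Cdkn1a start to 45 at the upstream Cdkn2a start, against a median of 7 over all starts (quartiles 3 and 20). The upstream Cdkn2a start exceeded 98.1% of all starts, the Cdkn2b start (18 CpG) 70.1% and the downstream Cdkn2a start (12 CpG) 60.1%. The upstream Cdkn2c start (33 CpG) and that of Cdkn1b (30 CpG) exceeded 91.4 and 88.2% of all starts without a peak over them.

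By CpG number, 1.73% of starts with 0 to 4 CpG lay under a control peak (213 of 12291, Wilson interval 1.52 to 1.98), 12.0% of those with 10 to 19 (666 of 5573, 11.1 to 12.8) and 11.4% of those with 30 or more (437 of 3836, 10.4 to 12.4). In the 2KO list these shares were 1.23, 7.48 and 4.12%. Most CpG-rich starts had no peak in either list, as those of Cdkn1b, Cdkn2c and Cdkn2d had none. The GC box GGGCGG, which holds a CpG itself and was searched on both strands, was found at 7 of the 9 inhibitor starts and at 35.9% of all starts. The E-box CANNTG, a palindrome counted once, was found at 4 of 9 and at 72.3% of all starts. All 3 starts under the control peak held GGGCGG, and so did 4 of the 6 outside it, so these letters did not separate the groups.

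**Figure D4:**
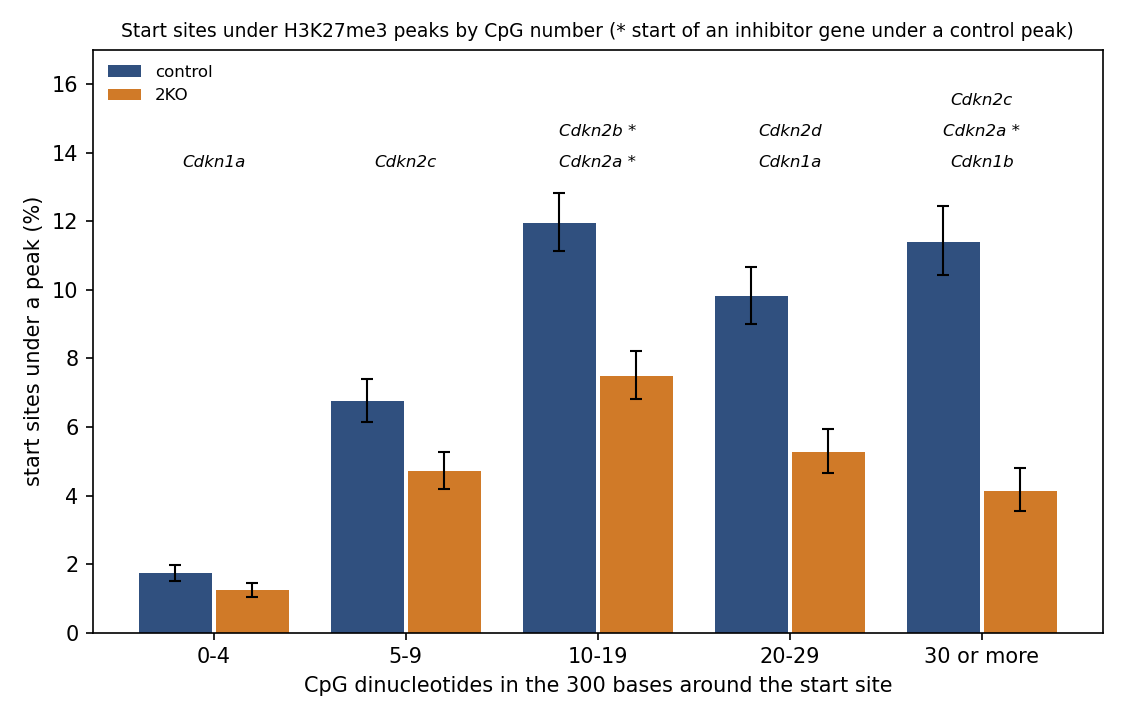
Percentage of RefSeq start sites under a control (blue) or 2KO (orange) peak by the number of CpG dinucleotides in the 300 bases around the start; bars start at 0, error bars are 95% Wilson intervals, and gene names above the bars give the class of each inhibitor start, with an asterisk for starts under a control peak. The 3 starts with an asterisk fall in the classes of 10 to 19 and of 30 or more CpG, beside inhibitor starts without a peak.

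The partners and regulators of the inhibitors were counted with the same window. Of 52 genes in 6 lists, 16 had a control peak and 6 a 2KO peak, and all 6 were among the 16. Over all protein-coding genes the shares were 14.9 and 11.2%. When only the 2340 widest peaks of either list were used, the counts were 7 and 6, and with a window of 1 kb they were 12 and 3. The shares of all genes above hold for the full lists and 10 kb only, so these other counts have no background beside them. Only 1 of the 5 INK4 partners, Cdk4, had peaks of both lists, 8.10 and 7.18 kb outside the gene. Ccnd2, which encodes cyclin D2, had a 3.29 kb control peak 3.23 kb outside the gene and no 2KO peak, and Cdk6, Ccnd1 and Ccnd3 had none. Among 8 CIP/KIP partners, Ccna1, the germ-line cyclin A gene, had 5.60 kb under control peaks in its window, 3.60 kb of it in its body, and no 2KO peak. Of 11 Rb and E2f genes, E2f1 (1.93 kb) and E2f4 (0.912 kb) had narrow control peaks 7.79 and 6.59 kb outside the gene, with no 2KO peak. In the p53 branch (5 genes), Trp73, a p53 relative, had a control peak of 21.3 kb and a 2KO peak of 5.03 kb. Trp53, Mdm2 and Mdm4 had none.

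Known repressors and activators of Cdkn2a were marked most often, at 7 of 11 in the control and 4 of 11 in the 2KO list. These genes were listed with their Polycomb literature in mind, so the count is not independent evidence. Tbx3 and Tbx2, T-box repressors of the Cdkn2a locus, had control peaks of 26.5 and 22.3 kb and 2KO peaks of up to 8.16 and 5.07 kb that reached their windows. Cbx8, a Polycomb chromodomain gene, had widest peaks of 14.9 and 4.27 kb. Bmi1, the Polycomb gene best known for repressing Cdkn2a, had 9.08 kb of control peaks and 0.089 kb of a 2KO peak in its window. Cbx7, Kdm2b and Ets1 had narrow control peaks (0.79, 2.22 and 2.24 kb) and no 2KO peak. Of 12 genes of the imprinted cluster around Cdkn1c, 3 had a control peak and 0 a 2KO peak. These were Igf2, the growth factor gene (6.66 kb), Kcnq1, the potassium channel gene (7.98 kb), and Ascl2, a bHLH factor gene (2.99 kb).

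The labelled cell type was set beside its markers. None of 8 genes of basal epidermis (Krt5, Krt14, Trp63, Itga6, Itgb4, Col17a1, Epcam and Ly6a) had a peak of either list within 10 kb. Over all protein-coding genes the shares were 14.9% (control) and 11.2% (2KO), so few of any 8 genes would have one. Of 17 genes of other cell types, 11 had a control and 9 a 2KO peak. Control peaks were at 4 of 4 dermal, 1 of 3 endothelial, 2 of 3 pigment, 1 of 3 immune and 3 of 4 Merkel genes. Krt8 and Krt18, both Merkel genes, share 1 control peak of 49.4 kb. A repressive mark gives no level of expression, and the share of other cells in either sort was not tested.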

How the data were processed

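The lists deposited by the authors, 1 for control and 1 for 2KO cells, give the positions of called H3K27me3 peaks in bp, without a height or p-value. The submitters' processing notes name Bowtie2 2.3.3.1, SAMtools 1.9 and build mm10. Peak caller, threshold, use of input and pooling of the 2 libraries are not given in the sources used, and a stricter threshold in either list would drop peaks. The input and Eed cKO libraries had no list here and were not analysed.

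Starts were read as 0-based and printed 1-based. An overlap was 1 bp or more. Genes, start sites and promoter sequences came from RefSeq tables of GRCm38.p6. No protein table was used, so the planned protein comparison was not made. Lengths, distances and shares come from Python 3.11.15 with numpy 2.4.6, pandas 2.3.3 and scipy 1.17.1, and figures drawn with matplotlib 3.10.9. In a test on simulated data, 2000 of the 3631 control peaks were kept in trimmed form as a mock 2KO list, and the code found all 2000, with 0 false overlaps.

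The members, lists and rules were chosen with earlier results of these data known. Named were the 7 genes, their nearest protein-coding neighbours, the listed pathway genes with a peak, and peaks near the Cdkn2a and Cdkn2b domain in width. The latter were the 5 nearest that overlap a protein-coding gene, over all control peaks and over those without a 2KO peak. Noncoding genes, and genes named to place a peak, were added after their values were seen. Alternatives covered the window, the overlap, merging within 3 kb, equal numbers of the widest peaks and a minimum width of 5 kb.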

Additional observations from a re-analysis of the deposited data

How the results depend on the processing

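No paired analysis was possible because only 1 list of peaks exists here for each genotype, so no library could be left out either. Of 40 recomputed values 33 stayed the same, many of them under settings that could not have moved them. For a count, staying the same means within 1.5 times, and for a length or share of bases within its counting interval. A distance had to be equal, and the promoter value within the standard deviation over the starts. The counting interval treats neighbouring bases as independent and measures no error between libraries, so for lengths the tally is only descriptive. Lengths from other windows were set against the 10 kb windows. The domain of Cdkn2a and Cdkn2b was covered to 0% and the Cdkn2c peak to 88.1% when peaks within 3 kb were merged, when the 2340 widest peaks of each list were compared, and with peaks of at least 5 kb. Under these 3 the nearest 2KO peak also stayed 371.7 kb from the domain. None of these 3 settings could have moved these values, so they lend no support. The same holds for the counts and called lengths of the inhibitor genes with a window of 10 kb. The 2KO list holds 2340 peaks and stayed whole, and the 2 control peaks rank 16th and 1149th by width. The peaks compared are wider than 5 kb, and no other peak lies within 3 kb of the domain or of the Cdkn2c peaks. Leaving out peaks under 5 kb removed the Ifna7 peak, and the distance on that side became 39417 kb. The values that moved did so with the window or with equal numbers of peaks. With a window of 0 kb, 2 inhibitor genes had a control and 0 a 2KO peak, and the called length was 24.9 kb in the control and 0 kb in the 2KO list. Of all protein-coding genes, 11.19% lay 0 kb from a control peak. A window of 25 kb took in the peak beside Cdkn1c and gave 4 genes with a control and 1 with a 2KO peak. The called lengths were then 60.2 and 6.52 kb, which is 16.6 and 1.80% of the wider windows, against 29.1 and 3.14% with 10 kb. The shares of all genes are not given for 25 kb, nor for the 2KO list at 0 kb, so those counts have no background beside them. Of the 52 pathway genes, 7 had a control peak with equal numbers of the widest peaks, and 3 a 2KO peak with a window of 1 kb. For these settings too, the share of all genes is not given. Depth is unknown, so what a deeper 2KO library would call at Cdkn2a and Cdkn2b cannot be given.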

Other observations

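Start sites under a control peak were in part also under a 2KO peak, with shares that differed by CpG number. The share was 61.1% (250 of 409, 95% Wilson interval 56.3 to 65.7) with 5 to 9 CpG in the window of 300 bases, 56.0% (373 of 666, 52.2 to 59.7) with 10 to 19, 50.1% (239 of 477, 45.6 to 54.6) with 20 to 29 and 34.8% (152 of 437, 30.5 to 39.4) with 30 or more. With 0 to 4 CpG it was 52.6% (112 of 213, 45.9 to 59.2), so the shares do not fall over all classes. The upstream Cdkn2a start and the start of Gm12610 are among the 437. Starts of 1 gene or 1 peak are not independent, and no test was made.

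In some long runs of neighbouring control peaks, none of the control peaks met a 2KO peak, though 2KO peaks could lie between them. By number of peaks, the first held 32 consecutive control peaks on chromosome 15, from 50705151 to 62898251 (12.2 Mb), with 316.1 kb under control peaks. The next held 21 on chromosome 13, from 48746183 to 53603116. The run of 12 that holds Cdkn2a and Cdkn2b ranked 9th by number of peaks and spanned 24.4 Mb. Of 106 control peaks of 20 kb or more that held a whole protein-coding gene, 9 met no 2KO peak (8.49%). The widest of these 9 was the Cdkn2a and Cdkn2b domain, followed by those of the Acot genes, Lhx2, Ucma (30.4 kb), Emx2 (27.8 kb), Pitx1 (26.9 kb), Foxb1 (26.6 kb), Vax1 and Osr2 (20.4 kb).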
